A study of Mus musculus with 24 samples.

Results

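Mitochondrial beta-oxidation of fatty acids in skeletal muscle was followed through the mRNAs of 10 of its enzymes, Acadvl, Acadl, Acadm, Acads, Hadha, Hadhb, Acaa2, Decr1, Etfb and Etfdh, out of 10891 genes with a usable signal. They were chosen by name, as acyl-CoA dehydrogenases, subunits of the trifunctional protein, the medium-chain thiolase, the dienoyl-CoA reductase and the flavoproteins that take up the electrons. Earlier results of these data were known when they were chosen. A gene was found through the gene name in the scanner files or the current symbol of the probe's accession. This gave 14 probes, of which 12 were bright enough to be used and all 10 genes had at least 1. Probe positions are on mouse build mm8, as the scanner files give them, and the place of the probes within exons was not analysed here.

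Gastrocnemius, a large calf muscle of mixed fibre types, was taken from 24 male C57BL/6N mice, 1 mouse per array. From the age of 3 months the mice ate for 8 weeks a high-fat diet holding 35% lipids by weight (cHF; n = 8), the same diet with 15% of those lipids replaced by an n-3 LC-PUFA (long-chain polyunsaturated fatty acid) concentrate, made of 46% DHA and 14% EPA (cHF+F; n = 8), or the same diet with rosiglitazone, a thiazolidinedione that activates PPARγ, at 10 mg per kg of diet (cHF+ROSI; n = 8). All 3 groups were fasted for 10 hours and then given Chow overnight before dissection, so that no mouse was eating its high-fat diet at the time of sampling. On each array the Cy5 dye carried the RNA of 1 mouse and Cy3 carried a common pool, which also held RNA of mice on a higher dose of rosiglitazone, and the dyes were never swapped. Levels are therefore given as the log2 ratio of a mouse over the pool, where a difference of 1 is a doubling, and the level of one gene cannot be set against that of another. Whole muscle was extracted, so fewer cells of a type and less RNA per cell cannot be told apart.

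Beta-oxidation shortens an acyl-CoA chain in the mitochondrial matrix by a repeated cycle of dehydrogenation, hydration, a second dehydrogenation and thiolytic cleavage. Each cycle releases acetyl-CoA to the citrate cycle and hands electrons to the respiratory chain. Long chains enter through the carnitine shuttle, and the pathway supplies much of the energy of resting and fasting muscle, most of all in slow, mitochondria-rich fibres. Many of its genes are known targets of PPAR and ERR nuclear receptors.

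Each slide held 1 array of each diet, in a fixed order, so that position on the slide and diet cannot be told apart, and the replicate number was the slide number. Slides 1 to 3 were dimmer than the rest, and in Cy5 between 30.4% and 61.3% of spots were well above background on 23 arrays and 91.1% on the array of cHF+ROSI mouse 4. The muscle markers Ckm, Acta1, Mb, Des and Ttn were well above background on all 24 arrays. All 7 adipocyte markers and 5 of 7 liver markers also gave usable signal, and the liver marker Serpina1a had no probe on the array. The p-values below set a difference against the spread between mice within groups of 8. In limma, a linear model, 1 estimate of that spread was shared by all 3 groups. The slide was not taken into account, except where it is named as a block.

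The promoters of 8 of the 10 genes were taken from the RefSeq table of build GRCm38.p6. Acaa2 and Decr1 were left out, so the shares of 8 windows below do not cover them. In the 250 bases before the start, the nuclear receptor half-site AGGTCA, on either strand, was present for Acadm and Acadvl, that is in 2 of 8 windows against 14% of all 32851 windows. A pair of half-sites in direct repeat with 1 base between them (DR1, the element that PPARs bind), with at most 2 mismatches over both strands, were in 0 of the 8 windows and in 3.24% of all. The GC box GGGCGG was in 4 of 8, for Acadl, Acads, Hadha and Hadhb, and in 32.7% of all. Hadha and Hadhb, whose products form one enzyme complex, lie head to head with starts 273 bases apart. Their windows overlap, and the GC box of Hadha lies on the same bases as a GC box of Hadhb. The same site is thus counted in both windows. The 3 sequences that follow show the half-sites of the fatty acid dehydrogenases and the stretch shared by Hadha and Hadhb, 5′ to 3′ on the strand of the gene, with half-sites and GC boxes in capitals. They are given because a shared regulator or a shared promoter would bear on how the genes vary together. A match of letters does not show that a factor binds there.
Acadvl, chr11:70015429-70015678, minus strand: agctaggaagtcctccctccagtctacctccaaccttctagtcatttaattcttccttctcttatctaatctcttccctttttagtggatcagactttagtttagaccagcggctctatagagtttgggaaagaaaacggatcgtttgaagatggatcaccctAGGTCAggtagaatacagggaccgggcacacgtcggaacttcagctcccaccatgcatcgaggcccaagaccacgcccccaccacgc
Acadm, chr3:153944644-153944893, minus strand: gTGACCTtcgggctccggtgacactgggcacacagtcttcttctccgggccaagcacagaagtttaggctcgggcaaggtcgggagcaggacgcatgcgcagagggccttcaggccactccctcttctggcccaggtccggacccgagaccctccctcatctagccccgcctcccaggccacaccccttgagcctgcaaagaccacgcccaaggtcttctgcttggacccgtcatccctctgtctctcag
Hadhb, chr5:30155003-30155252, plus strand: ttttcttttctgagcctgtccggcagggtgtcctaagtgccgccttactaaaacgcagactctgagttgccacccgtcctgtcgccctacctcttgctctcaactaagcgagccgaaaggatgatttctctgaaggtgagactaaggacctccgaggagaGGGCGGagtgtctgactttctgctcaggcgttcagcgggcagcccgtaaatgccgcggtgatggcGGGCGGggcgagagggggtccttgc

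The question of the first comparison was how n-3 fatty acids affected these mRNAs. In cHF+F, 9 of the 10 enzymes had a lower mean than in cHF (5 of 10 in Cy5 alone), with Hadha as the exception, whereas 49.6% of all 15958 probes were lower. The differences were small, between -0.21 and 0.0083 on the log2 scale with a median of -0.093, which is a 1.07-fold lower level, and the median of all probes was 0.00063. Without cHF mouse 1 the median of the enzymes was -0.15, and with each array left out in turn it ran from -0.15 to -0.069. None of the 10 passed limma with Benjamini-Hochberg adjustment over all probes, and 0 of all 15958 probes did (0%). At an unadjusted p under 0.05 there was 1 of 10, Etfdh, against 6.86% of all probes. In an exact two-sided permutation test of each enzyme, the count was also 1 of 10, but it was Acadvl. The limma count was 3 without cHF mouse 1 and 2 without cHF+F mouse 5 or cHF+ROSI mouse 3. It was 0 without cHF mouse 3, cHF+F mouse 1 or cHF+F mouse 4. No share of all probes was counted with arrays left out.

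The second comparison asked the same of rosiglitazone. In cHF+ROSI all 10 enzymes had a lower mean than in cHF (7 of 10 in Cy5 alone), against 54.7% of all probes, with differences between -0.31 and -0.12 and a median of -0.17 (1.12-fold lower; median of all probes -0.0086). After adjustment again 0 of 10 and 0 of 15958 probes passed (0%), and the smallest adjusted p of the 10 in limma was 0.996. At an unadjusted p under 0.05 there were 5 of 10, Hadhb, Acaa2, Decr1, Acadvl and Etfdh, all lower, where 4.7% of all probes passed in either direction and 3.01% were lower. The exact permutation test gave 2 of 10, Hadhb and Etfdh. Both comparisons use the same 8 cHF mice, so that they are not independent of each other. Without slides 1 to 3 the counts at an unadjusted p under 0.05 were 1 of 10 in cHF+F, again Etfdh, and 5 of 10 in cHF+ROSI. In cHF+ROSI Hadhb and Decr1 remained, and Acadl, Acads and Hadha took the place of Acadvl, Acaa2 and Etfdh. The share of all probes was not counted without these slides.

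The direction of some of these differences changed when a single channel was used. Single channels were brought to a common distribution across arrays (quantile normalization), without loess. Cy5 alone thus differs from the ratio in its normalization as well as in the missing Cy3, and the part of each was not tested. When Cy5 was used alone, 7 of 10 enzymes were lower in cHF+ROSI and 5 of 10 in cHF+F. Of all probes in Cy5 alone, 55% and 48.5% were lower in the same order. In either comparison 0 of 10 enzymes reached an unadjusted p under 0.05. Acadl, Etfdh and Acadm were then higher in cHF+ROSI, by 0.27, 0.31 and 0.17. In the Cy3 channel, which held the same pool on every array, the differences between cHF+ROSI and cHF arrays were 0.48 for Acadl, 0.46 for Etfdh and 0.19 for Acadm, with p = 0.216, 0.193 and 0.479 in exact permutation tests. The differences in Cy3 were thus larger than those in the ratio for these 3 genes. For Hadhb the Cy3 difference was 0.11, the Cy5 difference -0.095 and the difference of the ratio -0.31. For Etfb and Acads, all 3 measures were lower in cHF+ROSI.

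**Figure D1:**
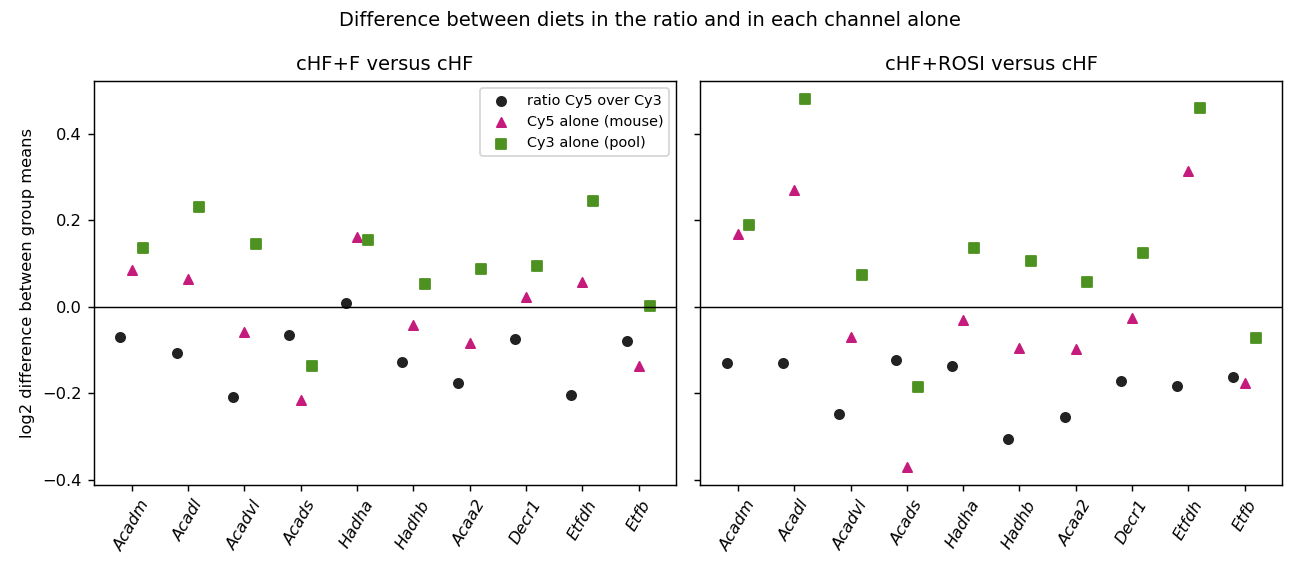
Difference between group means on the log2 scale (y axis) for each enzyme (x axis), for the ratio (black circles), Cy5 alone (magenta triangles) and Cy3 alone (green squares), n = 8 arrays per diet. In cHF+ROSI versus cHF all 10 black circles lie below 0, while the triangles of Acadm, Acadl and Etfdh lie above it, as do their squares, at 0.19, 0.48 and 0.46.

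Acadvl encodes the very long-chain acyl-CoA dehydrogenase, which takes the first step for the longest chains. Its probe (chr11:69826443-69826502, mm8) gave ratios in cHF of -0.36 to 0.25 with a median of -0.15, in cHF+F of -0.58 to -0.066 with a median of -0.27, and in cHF+ROSI of -0.97 to -0.011 with a median of -0.19. The groups overlapped, and the lowest value of all, -0.97, came from cHF+ROSI mouse 3. The difference from cHF was -0.21 ± 0.11 (SE) in cHF+F (exact permutation p = 0.0407; adjusted p = 0.793 in limma) and -0.25 ± 0.11 in cHF+ROSI (exact permutation p = 0.0838; adjusted p = 0.996 in limma). In cHF+F the mouse was below the cHF mouse of its own slide on 8 of 8 slides, and in cHF+ROSI on 6 of 8. Without cHF+ROSI mouse 3 the rosiglitazone difference was -0.16 (exact permutation p = 0.168), and without slides 1 to 3 it was -0.13.

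Acadl and Acadm encode the long-chain and medium-chain dehydrogenases. The Acadl probe (chr1:66764307-66764366, mm8) had means of 0.28 ± 0.26 (SD) in cHF, 0.17 ± 0.21 in cHF+F and 0.15 ± 0.24 in cHF+ROSI, n = 8 each. The lowest Acadl value of every diet, -0.28, -0.27 and -0.23, came from slide 1. The Acadm probe (chr3:153860092-153860151, mm8) had means of -0.073 ± 0.23, -0.14 ± 0.17 and -0.20 ± 0.27 in the same order. Neither gene differed beyond the spread between mice, with 95% confidence intervals for cHF+ROSI minus cHF of -0.36 to 0.10 for Acadl and of -0.35 to 0.086 for Acadm. Without cHF mouse 1 the Acadl differences from cHF grew from -0.11 to -0.19 with n-3 fatty acids and from -0.13 to -0.21 with rosiglitazone, and with other single arrays left out they shrank to as little as -0.045 and -0.075. The lower bounds correspond to a level 22.1% lower for Acadl and 21.4% lower for Acadm.

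Acads encodes the short-chain dehydrogenase, the last of the 4 by chain length. Its probe (chr5:115371877-115371936, mm8) was one of the dimmer ones, with a signal 23.2 times background in Cy5. The means were -0.16 ± 0.16 in cHF, -0.22 ± 0.11 in cHF+F and -0.28 ± 0.21 in cHF+ROSI. Acads differed from cHF by -0.067 ± 0.080 (SE) with n-3 fatty acids and by -0.12 ± 0.080 with rosiglitazone, and the groups overlapped over nearly their whole range.

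Hadha and Hadhb encode the alpha and beta subunits of the trifunctional protein, which carries out the later 3 steps on long chains. Hadhb (chr5:30515041-30515100, mm8) had the smallest unadjusted p of the 10 enzymes. Its ratios ran from -0.46 to 0.26 in cHF (median 0.089), from -0.34 to 0.14 in cHF+F (median -0.15) and from -0.57 to -0.081 in cHF+ROSI (median -0.16). All 8 cHF+ROSI mice were below the cHF mean, yet cHF mouse 1, at -0.46, was lower than most of them. The difference was -0.31 ± 0.099 (SE) with rosiglitazone, a 1.24-fold lower level (exact permutation p = 0.0143; adjusted p = 0.996 in limma), and the cHF+ROSI mouse was below its cHF slide partner on 7 of 8 slides. With n-3 fatty acids Hadhb differed by -0.13 ± 0.099 (exact permutation p = 0.254; adjusted p = 0.902 in limma), lower on 6 of 8 slides.

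Of the 5 enzymes with an unadjusted limma p under 0.05 under rosiglitazone, only Hadhb and Decr1 were left when cHF+ROSI mouse 3 was taken out, and only Hadhb without cHF+ROSI mouse 8. In exact permutation tests Hadhb had p = 0.0272 without mouse 3 and p = 0.0278 without mouse 8. Without cHF mouse 1, which was low for Hadhb, the count grew to 8 of 10 and the Hadhb difference to -0.38 (adjusted p = 0.359, limma). It fell to 2 of 10 without cHF mouse 3, 4 or 5. The share of all probes at this threshold was not counted with arrays left out.

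For Hadha, the usable probe (chr5:30450462-30450521, mm8) had means of -0.13 ± 0.33 (SD) in cHF, -0.12 ± 0.15 in cHF+F and -0.26 ± 0.32 in cHF+ROSI, and differed by 0.0083 ± 0.13 (SE) and -0.14 ± 0.13 from cHF. Its lowest value was -0.87 in cHF mouse 1, and without that mouse the differences were -0.099 with n-3 fatty acids and -0.24 with rosiglitazone, against -0.20 and -0.38 for Hadhb. Whether the differences of both subunits were unequal was not tested. On slide 1 the cHF+F mouse, at -0.39, was also the lowest of its group. Another 2 probes placed at Hadha by the gene name in the scanner files gave signals of 2.00 and 1.40 times background in Cy5 and were not used.

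Acaa2 encodes the thiolase that cleaves medium-chain 3-ketoacyl-CoA. Its probe on chromosome 18 was printed 10 times on each array, so that it shows the noise between spots, though not that of labelling, hybridisation or slide. The SD between the 10 spots of an array had a median of 0.077, and the SD between mice was 0.21 in cHF, 0.13 in cHF+F and 0.30 in cHF+ROSI. Ratios ran from -0.18 to 0.38 in cHF (median 0.066), from -0.30 to 0.074 in cHF+F (median -0.11) and from -0.63 to 0.17 in cHF+ROSI (median -0.047). The groups overlapped, although all 8 cHF+F mice lay below the cHF mean. The difference was -0.18 ± 0.10 (SE) with n-3 fatty acids (exact permutation p = 0.0653; adjusted p = 0.826 in limma), lower on 7 of 8 slides, and -0.26 ± 0.10 with rosiglitazone (exact permutation p = 0.0687; adjusted p = 0.996 in limma), lower on 5 of 8. Without cHF+ROSI mouse 3, the lowest at -0.63, the latter was -0.19 (exact permutation p = 0.135).

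Decr1, the 2,4-dienoyl-CoA reductase, handles double bonds of polyunsaturated chains such as DHA and EPA. Its brighter probe (chr4:15844647-15844706, mm8) ran from -0.0058 to 0.56 in cHF (median 0.34), from 0.19 to 0.33 in cHF+F (median 0.22) and from -0.023 to 0.39 in cHF+ROSI (median 0.074). The cHF+F mice were closer together than those of the other groups, with an SD of 0.049 against 0.19 and 0.15, and this difference in spread was not tested. Decr1 differed by -0.075 ± 0.072 (SE) with n-3 fatty acids, lower on 4 of 8 slides, and by -0.17 ± 0.072 with rosiglitazone (exact permutation p = 0.0682; adjusted p = 0.996 in limma), lower on 6 of 8 slides. The dimmer probe (chr4:15845098-15845157) gave differences of -0.077 and -0.10, with exact permutation p = 0.312 and 0.275.

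Etfb, a subunit of the electron transfer flavoprotein, and Etfdh, its ubiquinone oxidoreductase, pass the electrons of the dehydrogenases to the respiratory chain. Etfdh (chr3:79689820-79689879, mm8) ran from -0.019 to 0.60 in cHF (median 0.35), from -0.23 to 0.41 in cHF+F (median 0.14) and from -0.046 to 0.29 in cHF+ROSI (median 0.13). The groups overlapped, but in cHF+F the mouse was below its cHF slide partner on 8 of 8 slides. The difference was -0.20 ± 0.085 (SE) with n-3 fatty acids (exact permutation p = 0.0657; adjusted p = 0.641 in limma) and -0.18 ± 0.085 with rosiglitazone (exact permutation p = 0.0277; adjusted p = 0.996 in limma). With the slide as a block the n-3 difference had an adjusted p of 0.201 in limma.

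The 2 Etfdh probes did not give the same values. The dimmer one (chr3:79701861-79701920), at 11.7 times background against 261 for the brighter, differed from cHF by -0.014 ± 0.074 (SE) with n-3 fatty acids and by -0.035 ± 0.074 with rosiglitazone, with exact permutation p = 0.857 and 0.591. With both probes averaged, Etfdh no longer reached an unadjusted p under 0.05 in either comparison. Etfb (chr7:43325628-43325687, mm8) had means of -0.093 ± 0.14 (SD) in cHF, -0.17 ± 0.12 in cHF+F and -0.25 ± 0.32 in cHF+ROSI. The spread of Etfb in cHF+ROSI came largely from mouse 3, at -0.91, and the difference of -0.16 from cHF was -0.067 without it.

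**Figure D2:**
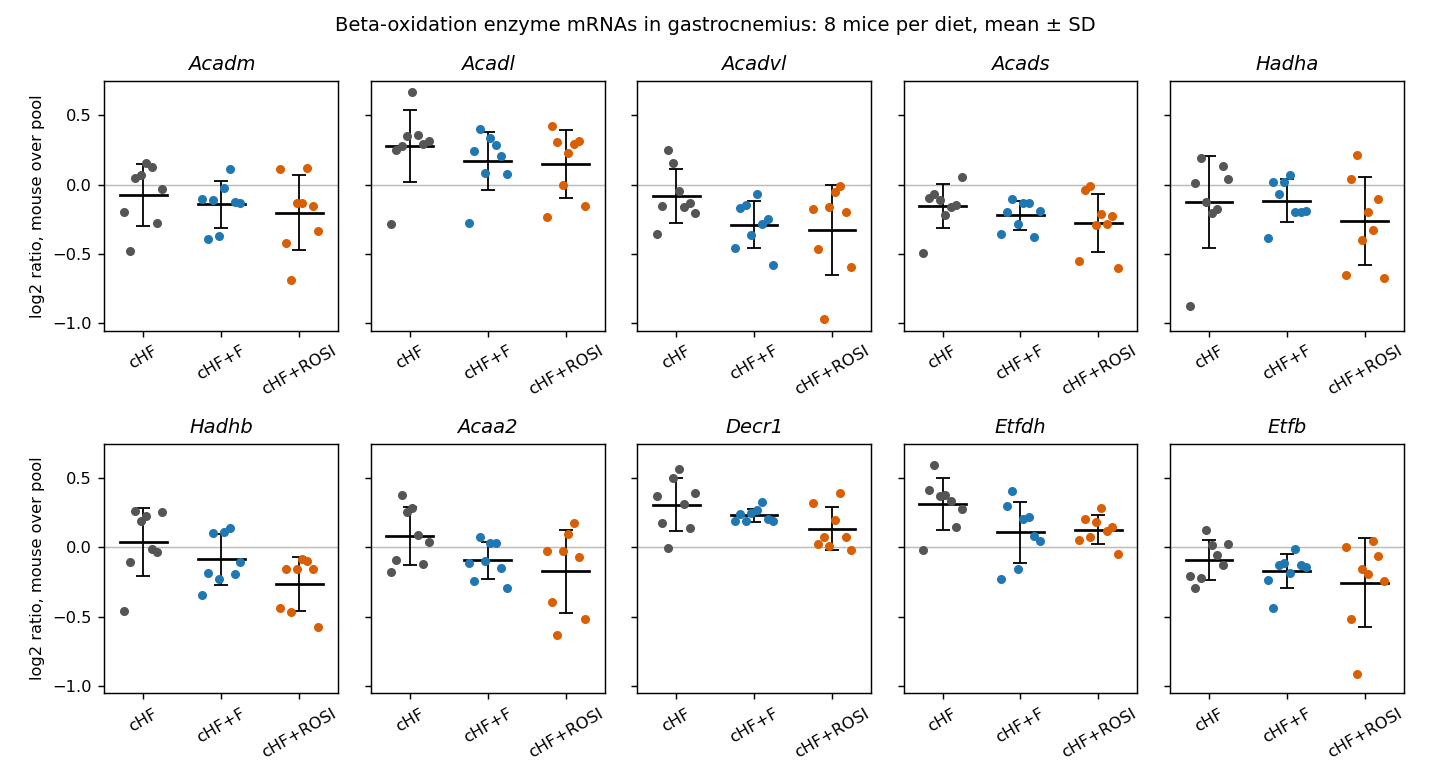
Log2 ratio of each mouse over the pool (y axis) by diet (x axis) for each enzyme, 1 point per mouse, with the mean (bar) and SD (error bar) of 8 mice. The groups overlap for every enzyme, and single low mice stand out, such as cHF mouse 1 at -0.87 for Hadha and cHF+ROSI mouse 3 at -0.97 for Acadvl.

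When both additions were compared directly, 9 of 10 enzymes were higher in cHF+F than in cHF+ROSI, against 54.2% of all probes. The count was only 4 of 10 when arrays were centred on the median without loess. It was 5 of 10 with a narrower loess span, with processed signals or without background correction. In these settings, in that order, 6, 5, 5 and 5 enzymes were lower, against 44.6%, 47.2%, 39.5% and 42.9% of all probes. With the processing used throughout, the differences ran from -0.019 to 0.18 with a median of 0.070. That median was 0.030 without cHF+ROSI mouse 3, 0.036 without cHF+ROSI mouse 8 and 0.12 without cHF+ROSI mouse 6. The count after adjustment by limma was 0 of 10 and 0 of 15958 probes (0%), and at an unadjusted p under 0.05 it was 0 of 10 against 6.67% of all probes. Hadhb came closest, at 0.18 ± 0.099 (exact permutation p = 0.0855; adjusted p = 0.787 in limma), with 7 of 8 cHF+F mice above the cHF+ROSI mean. With the slide as a block Hadhb reached an unadjusted limma p under 0.05, so that the count became 1 of 10. The 95% confidence intervals of the 10 direct differences all included 0.

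**Figure D3:**
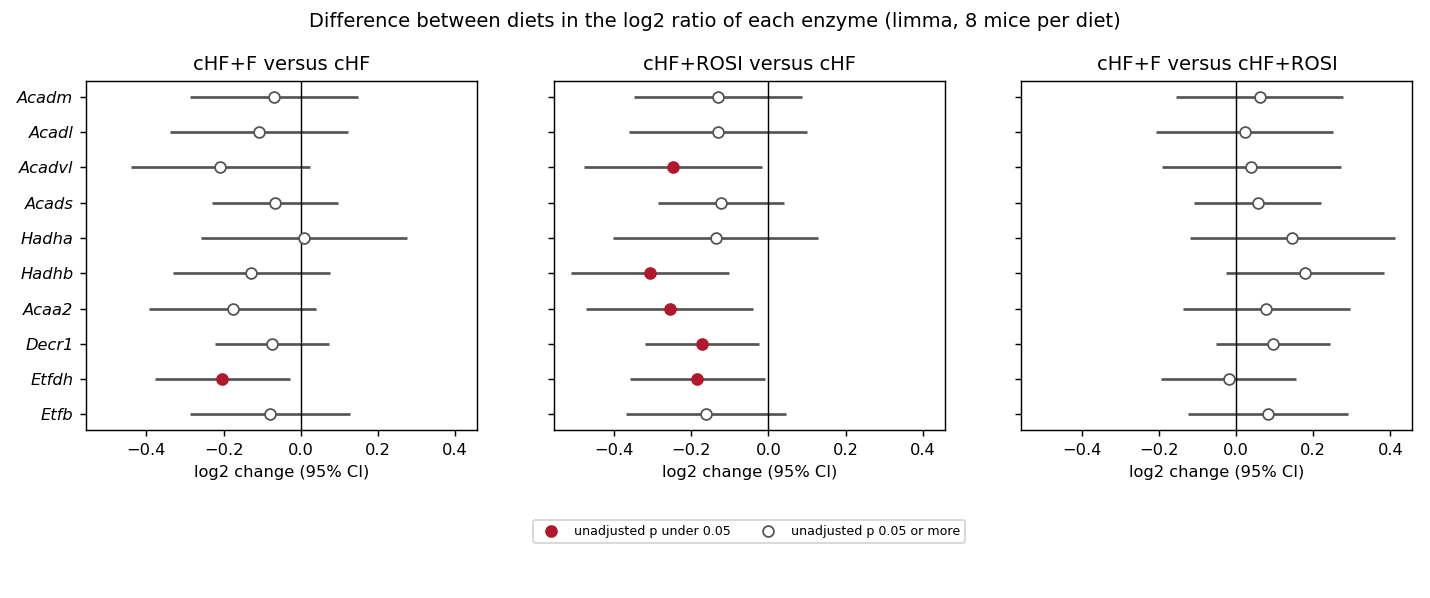
Difference between diets in the log2 ratio of each enzyme with its 95% confidence interval (x axis; limma, n = 8 mice per diet), in 3 comparisons. Filled red points have an unadjusted p under 0.05: 1 in cHF+F versus cHF, 5 in cHF+ROSI versus cHF and 0 in cHF+F versus cHF+ROSI.

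The mean of the 10 enzymes on an array gives the pathway of a single mouse. It ran from -0.27 to 0.18 in cHF, from -0.23 to 0.062 in cHF+F and from -0.38 to 0.042 in cHF+ROSI, with means of 0.049 ± 0.15, -0.062 ± 0.11 and -0.14 ± 0.14 (SD, n = 8). The ranges overlapped throughout. On 7 of 8 slides the cHF+F mouse was below the cHF mouse, and on 7 of 8 the cHF+ROSI mouse was. The exception in both cases was slide 1, whose cHF mouse was the lowest of its group and had the lowest value of the group for 7 of the 10 enzymes. In cHF+ROSI the lowest values were shared by mouse 8 for 5 enzymes, mouse 3 for 4 and mouse 1 for 1.

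The low mice of cHF+ROSI differed in what else was low. On the array of mouse 3, the 319 brightest other probes (2% of those kept) had a median ratio of -0.70, and on that of mouse 2 of -0.25, whereas on the other 22 arrays it lay between -0.14 and 0.096. Of the 6 enzymes with the brightest probes, Acadvl was at -0.97 in mouse 3, Etfb at -0.91, Acadm at -0.68, Acaa2 at -0.63 and Hadhb at -0.47, while Etfdh was at 0.075, close to its group mean of 0.13. On the array of mouse 8 the brightest probes had a median of 0.039, and the mean of the 10 enzymes, -0.38, was the lowest of all 24 mice. That mouse also had the lowest mean of the 9 slow fibre markers, -1.12, and the highest mean of the 5 liver markers, 1.24, of all 24 mice. Within its group it had the highest means of the fast fibre markers (0.50) and adipocyte markers (0.33) and the lowest of the blood markers (-0.63). The source of the liver signal was not tested, nor was the part of signal brightness and of other cells and fibres in the enzyme values.

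**Figure D4:**
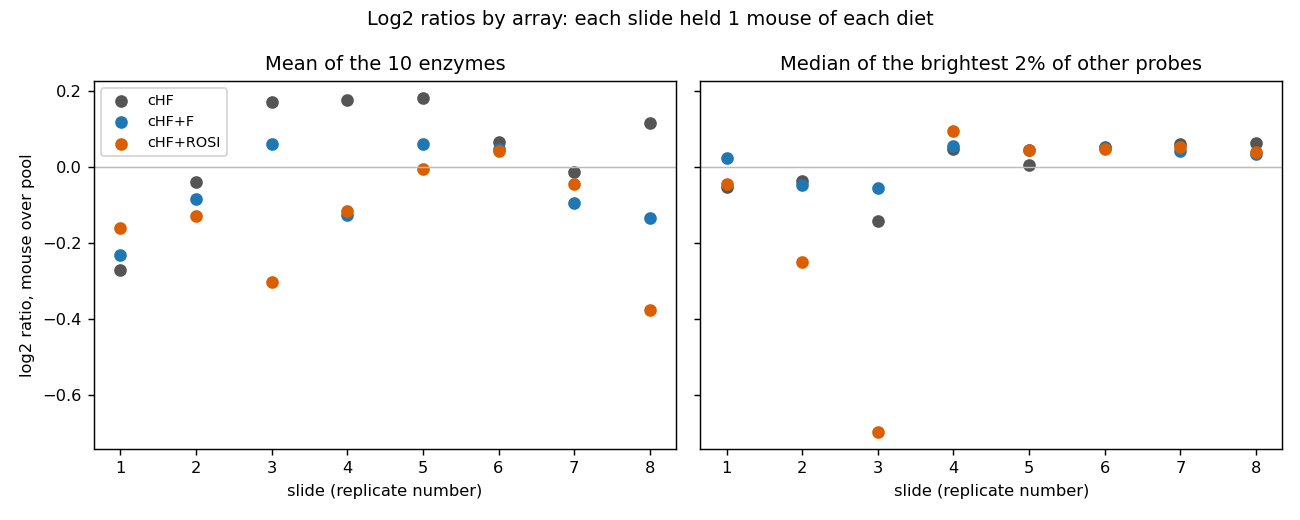
Mean log2 ratio of the 10 enzymes (left) and median log2 ratio of the 319 brightest other probes (right) on each array (y axis), by slide (x axis), coloured by diet. On slide 3 the cHF+ROSI array is low in both panels, at -0.30 and -0.70, and on slide 8 it is low for the enzymes (-0.38) but not for the bright probes (0.039).

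Enzymes of the pathway varied together from mouse to mouse, though not all with each other. With the mean of each diet subtracted, the 45 pairs had Pearson correlations over the 24 mice between -0.41 and 0.88 with a median of 0.47, given as a description of values that share an array, a slide and a pool. The closest pairs were Acadvl with Acaa2 at 0.88, Acads with Hadha at 0.87 and Acadm with Etfb at 0.81. Hadha and Hadhb, with their shared promoter region shown above, correlated at 0.51, and at 0.30 when slide means were subtracted as well.

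The 6 enzymes in the upper 6% of kept probes by signal were Acadm, Acadvl, Hadhb, Acaa2, Etfdh and Etfb. With diet means subtracted, their 15 pairs had correlations between -0.0060 and 0.88, and their 24 pairs with Acadl, Acads, Hadha and Decr1 lay between -0.41 and 0.74, so that the sets overlapped. Once slide means were subtracted as well, the 15 pairs lay between 0.66 and 0.93 and the 24 pairs between -0.23 and 0.55. Leaving out slide 3 then gave 0.52 to 0.87 for the 15 pairs. The 6 pairs among the other 4 enzymes ran from 0.012 to 0.80. These sets were formed after the values were seen, and they cannot be told apart from the brightness of the probes. Acadvl and Acadm, the genes with a half-site in their promoter, correlated at 0.62 before and 0.83 after removal of slide means, where the median of the 15 pairs was 0.62 and 0.80.

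**Figure D5:**
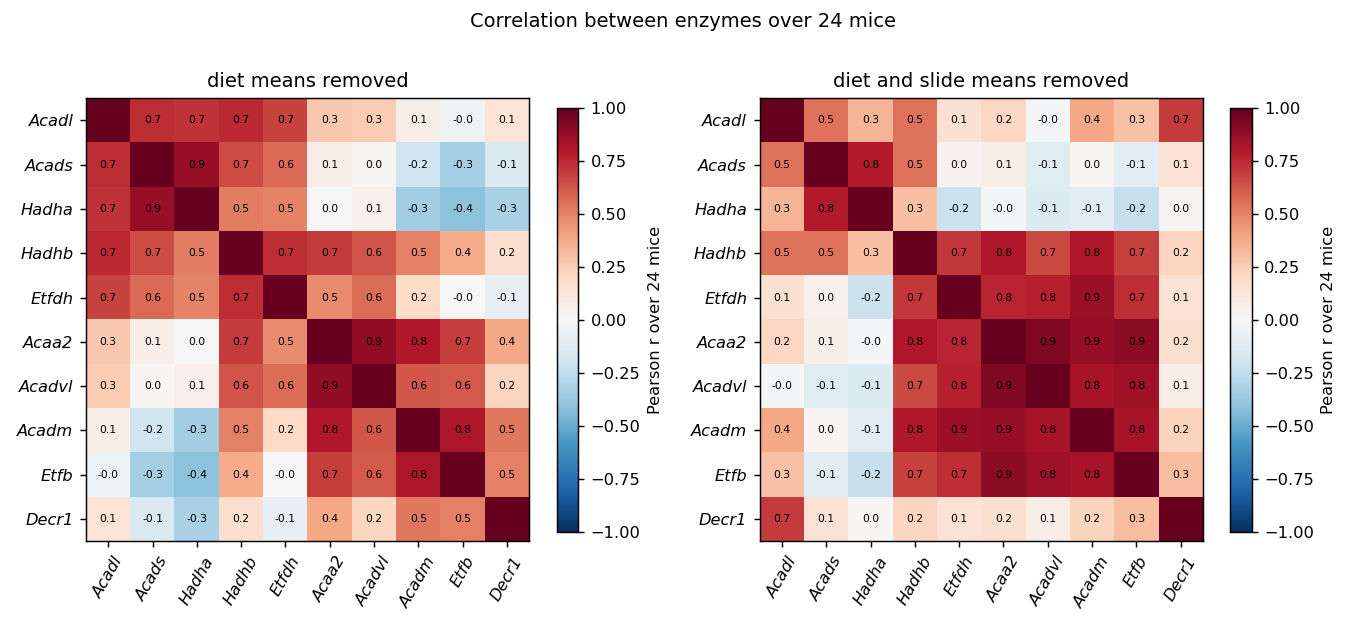
Pearson correlation between enzymes over 24 mice (colour and printed value) after subtraction of diet means (left) and of diet and slide means (right). On the right, the block of Hadhb, Etfdh, Acaa2, Acadvl, Acadm and Etfb holds values from 0.66 to 0.93.

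Hadhb correlated with the mean of the other 9 enzymes at 0.93, and at 0.91 with slide means subtracted too, both the highest of the 10. The lowest were Decr1 at 0.23 and Hadha at 0.25, and with slide means subtracted Hadha at 0.074, followed by Decr1 and Acads, both at 0.28. Among 10676 other genes measured on every array, the 10 whose values followed the mean of the enzymes most closely were Fxyd6 (0.83), Slc25a20 (0.81), Coq8a (0.80), Gatd3a (0.80), Ndufb3 (0.78), Dach2 (0.77), Sertad4 (0.76), Mybpc1 (0.76), Itgbl1 (0.76) and Ech1 (0.75), where the median gene was at 0.0081. Slc25a20 is the carnitine-acylcarnitine carrier, Coq8a takes part in coenzyme Q synthesis, Ndufb3 is a subunit of complex I, Ech1 is another auxiliary enzyme of beta-oxidation and Mybpc1 is the slow myosin-binding protein C. With slide means subtracted too, Fxyd6 (0.90), Gatd3a, Ndufb3 and Sertad4 were still among the first 10. Ech1 moved to place 13, Coq8a to 14, Itgbl1 to 21 and Slc25a20 to 27, while Mybpc1 dropped to place 138 and Dach2 to place 281.

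The carnitine shuttle, which feeds the pathway, had 7 of 8 genes measured, and all 7 had lower means in both comparisons with cHF, except that in Cy5 alone it was 6 of 7 with rosiglitazone, Acsl1 being higher by 0.042. The medians were -0.13 with n-3 fatty acids and -0.14 with rosiglitazone, and remained negative in Cy5 alone, at -0.17 and -0.23. Of all probes, 49.6% and 54.7% were lower. None of the 7 passed adjustment in limma. At an unadjusted p under 0.05 there were 2 with n-3 fatty acids, Acsl1 at -0.30 and Cpt2 at -0.24, against 6.86% of all probes, and 3 with rosiglitazone, Cpt2 at -0.28, Cpt1b at -0.20 and Crat at -0.14, against 4.7%. Acsl1 activates long-chain fatty acids, Cpt1b and Cpt2 move them across the mitochondrial membranes and Crat handles short acyl groups.

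The other 16 mitochondrial beta-oxidation genes had medians of -0.050 with n-3 fatty acids (9 lower) and -0.071 with rosiglitazone (13 lower, but 6 in Cy5 alone). In this list, an unadjusted p under 0.05 was reached by 0 and by 2 genes respectively, Eci2 at -0.18 and Acad10 at -0.12. Of all probes, 49.6% and 54.7% were lower, and 6.86% and 4.7% reached an unadjusted p under 0.05. The 14 peroxisomal genes measured had medians of -0.062 and -0.018, with Acaa1a at -0.14 and Acaa1b at -0.11 under an unadjusted p of 0.05 with n-3 fatty acids. Acaa1a and Acaa1b are near-identical thiolases that a probe may not separate.

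The 18 genes of the citrate cycle and respiratory chain, to which beta-oxidation delivers, had a median of -0.041 with n-3 fatty acids and of -0.17 with rosiglitazone. With rosiglitazone 17 of 18 were lower, but 12 of 18 in Cy5 alone, against 54.7% of all probes lower in the ratio. An unadjusted p under 0.05 was reached by 4.7% of all probes in that comparison. With rosiglitazone, genes of this list at an unadjusted p under 0.05 included Fh1 at -0.20, Ndufv1 at -0.25 and Uqcrc1 at -0.32, and 0 of the 18 passed adjustment in limma. In Cy5 alone the median of this list was -0.049.

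Slow fibre markers, like the enzymes, had mostly lower means than in cHF. With n-3 fatty acids 8 of 9 had a lower mean (7 in Cy5 alone), with a median of -0.34, and 4 had an unadjusted p under 0.05, Tnni1 at -0.81, Tnnc1 at -0.70, Myh7 at -0.80 and Tpm3 at -0.14. With rosiglitazone 7 of 9 were lower (5 in Cy5 alone), with a median of -0.22 and 0 at an unadjusted p under 0.05 in limma. Of all probes, 49.6% and 54.7% were lower in these comparisons, and 6.86% and 4.7% reached an unadjusted p under 0.05. None of the 9 passed adjustment in either comparison. Tnni1, Tnnc1, Myh7 and Tpm3 are among the genes that the authors reported as lower in cHF+F on these arrays. For Myh7 and Tpm3 the authors listed a different probe from the brightest one used here. The list was chosen with earlier results of these data known, so the low p-values of these genes are not independent of that report. The mean of the 9 markers ran from -0.31 to 0.58 in cHF, from -0.96 to 0.34 in cHF+F and from -1.12 to 0.54 in cHF+ROSI. Over the 24 mice, with diet means subtracted, the 9 markers correlated with the mean of the enzymes at 0.046 for Myl3 to 0.38 for Myl2. The 10 fast fibre markers had medians of 0.068 and -0.12 (0.052 and 0.16 in Cy5 alone), and the 5 general muscle markers 0.093 and -0.16 (-0.041 and -0.051 in Cy5 alone). The part of fibre composition in the enzyme values was not tested.

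Markers of other cells and of liver varied widely between mice. With n-3 fatty acids and with rosiglitazone, respectively, the median differences from cHF were -0.092 and 0.010 for 7 adipocyte markers, 0.40 and 0.63 for 5 liver markers, -0.18 and -0.033 for 6 macrophage markers, -0.12 and -0.17 for 5 endothelial markers (all 5 lower in both comparisons, 4 in Cy5 alone) and -0.022 and -0.40 for 2 blood markers. Of all probes, 49.6% and 54.7% were lower. At an unadjusted p under 0.05 there were 2 of the 5 endothelial markers with n-3 fatty acids, Cldn5 at -0.65 and Cdh5 at -0.19, against 6.86% of all probes. With rosiglitazone there were 3, Cldn5 at -0.42, Kdr at -0.23 and Tek at -0.17, against 4.7%. Cldn5 is among the genes that the authors reported as lower in cHF+F on these arrays, and the lists were chosen with earlier results of these data known. Of the other lists, Csf1r of macrophages reached an unadjusted p under 0.05 with n-3 fatty acids, at -0.22, and Apoa2 of liver and Hba-a1 of blood with rosiglitazone, at 0.69 and -0.49. None of the genes of these lists passed adjustment in limma. The mean of the endothelial markers ran from -0.20 to 0.31 in cHF, from -0.39 to 0.033 in cHF+F and from -0.22 to 0.069 in cHF+ROSI. The mean of the adipocyte markers ran from -0.98 to 0.70 in cHF, from -1.31 to 1.02 in cHF+F and from -0.87 to 0.33 in cHF+ROSI, and that of the liver markers from -2.11 to -0.37, from -1.59 to 0.64 and from -2.19 to 1.24. The source of the liver signal and the part of other cells in the enzyme values were not tested.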

How the data were processed

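The deposited scanner files hold, per the file headers, the linear median intensity of spot and background in both channels, quantified by Feature Extraction version 10.5.1.1. The authors also deposited a table of log2 values, normalized after removal of dim spots, with 16 columns for cHF and cHF+F that served as an alternative. A further 8 columns carry the name of another diet and were not used.

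Each array had 45018 spots, 43379 of them not controls, for 41174 probes. Signals were corrected by normexp (offset 50), ratios were normalized by loess (span 0.3), flagged spots were set to missing and spots of a probe were averaged. Probes needed 4 unflagged arrays in each group and a mean signal of at least 2 times background in both channels, which left 15958. Their names came from a RefSeq table through the accession for 12577 and from the file alone for 2544, and 837 had no symbol. Where a gene had several probes the brightest was used. Groups were compared with limma version 3.58.1 (lmFit and eBayes, two-sided, all 3 groups in 1 model) in R version 4.3.3, with Benjamini-Hochberg adjustment over all kept probes and a threshold of 0.05. Single enzymes were also compared by exact two-sided permutation tests over mice, unadjusted. The code was tested on simulated data. The number of arrays limits the precision.

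Replicate numbers are slide numbers, per the file headers, and all arrays were scanned on 1 day. Over 15674 probes, deviations from the group means correlated between arrays of a slide at -0.11 to 0.64 (median 0.25, over 0.1 in 18 of 24 pairs), against a median of -0.052 between slides, so the slide was used as a replicate block in an alternative. No 2 arrays held identical values.

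The named genes are all 10 enzymes with every usable probe, up to 5 genes of each list with an unadjusted p under 0.05, and the 10 genes with the highest correlation to the mean of the enzymes. A gene that this rule would name is not reported here. The enzymes and lists were chosen with earlier results of these data known. The alternatives were other background corrections, signals and normalizations, single channels, array weights, other filters, all probes of a gene, the methods' t-test, each array left out and, chosen after seeing the data, slides 1 to 3 left out, Cy3 alone and the exact permutation test.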

Additional observations from a re-analysis of the deposited data

Results flagged for a closer look

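Of 30 sets of 8 mice (10 enzymes in 3 diets), 2 held a mouse that stood apart from the others of its diet, where chance flags about 1 set in 20. Both were cHF mouse 1. Its Acadl ratio was -0.28, while the next lowest cHF mouse had 0.25. Its Hadha ratio was -0.87, while the next lowest had -0.20. The cHF+F and cHF+ROSI mice of the same slide also had the lowest Acadl values of their groups.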

How the results depend on the processing

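No enzyme passed adjustment under any of the 39 alternatives for cHF+F versus cHF or the 38 for each of the other comparisons, and the smallest adjusted p was 0.201 for n-3 fatty acids, 0.256 for rosiglitazone and 0.371 for the direct comparison. The median difference of the enzymes stayed negative in both comparisons with cHF, between -0.18 and -0.010 with n-3 fatty acids and between -0.23 and -0.051 with rosiglitazone over the alternatives that kept every array. The number of enzymes at an unadjusted p under 0.05 depended on the processing, and the causes were not tested. The share of all probes at that threshold was not counted under the alternatives that follow.

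With n-3 fatty acids (1 of 10) that number was 0 with Cy5 alone, in the authors' table, with median centring and with all probes of a gene averaged, 2 with array weights and a loess span of 0.1, and 3 without background correction and with processed signals. With rosiglitazone (5 of 10) it was 0 with Cy5 alone and median centring, 2 with a loess span of 0.1, with the methods' t-test and with the exact permutation test, 3 without background correction and with all probes averaged, and 7 with processed signals and with array weights. In the direct comparison (0 of 10) it was 2 with array weights, 1 without slides 1 to 3 and 1 with the replicate block of the slide, which moved no other count of enzymes by over 1.5 times. The median of the direct comparison, 0.070, was -0.075 under median centring. With each array left out in turn, the counts ran from 0 to 3, from 1 to 8 and from 0 to 1, and the medians from -0.15 to -0.069, from -0.22 to -0.14 and from 0.030 to 0.12. Without slides 1 to 3 the medians were -0.16, -0.19 and 0.041.

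Directions turned as follows. With Cy5 alone the n-3 differences were 0.085 for Acadm, 0.063 for Acadl, 0.022 for Decr1 and 0.058 for Etfdh, the rosiglitazone differences 0.17 for Acadm, 0.27 for Acadl and 0.31 for Etfdh, and the direct differences -0.082 for Acadm and -0.21 for Acadl. The n-3 difference of Hadha was -0.069 with array weights, -0.0012 with mean spot signals, -0.052 with processed signals, -0.033 without slides 1 to 3, and between -0.099 and 0.053 with single arrays left out. In the direct comparison, Acadm, Acadvl, Acaa2 and Etfb were at -0.0016, -0.077, -0.0018 and -0.032 with a loess span of 0.1, at -0.014, -0.096, -0.020 and -0.051 without background correction, at -0.014, -0.073, -0.011 and -0.010 with processed signals, and at -0.087, -0.14, -0.077 and -0.092 with median centring, where Acadl was at -0.073. Array weights gave -0.026 for Acadl and -0.017 for Acads, both probes of Etfdh averaged 0.00070, and leaving out slides 1 to 3 gave -0.10 for Acadvl and -0.027 for Acaa2. With single arrays left out, the direct differences ran from -0.032 to 0.086 for Acadl, -0.0075 to 0.11 for Acadm, -0.052 to 0.085 for Acadvl, -0.012 to 0.13 for Etfb and -0.062 to 0.029 for Etfdh.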
